A study of Mus musculus with 48 samples.

Results

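The T cell receptor variable (V) gene segments are the 144 genes that the count table annotates with the biotype TR_V_gene, out of 55486 genes in all. They comprise 110 alpha segments and 5 delta segments on chromosome 14, 22 beta segments on chromosome 6 and 7 gamma segments on chromosome 13 of mouse build GRCm38. The annotation alone decides membership. Another 34 genes are annotated as V pseudogenes and were kept apart.

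A T cell assembles each receptor chain by joining a V segment to a joining segment, with a diversity segment between them in beta and delta chains, and splices the product to a constant gene. The cut is made by the RAG recombinase, and Dntt (terminal transferase) adds bases at the joint. Alpha and beta chains form the receptor of most T cells in lymphoid organs, while gamma and delta chains form the receptor of a smaller lineage. All of these chains reach the surface together with the CD3 proteins. Unrearranged segments are known to be transcribed at low levels, so RNA from a V segment does not by itself mark a finished receptor.

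Poly(A)-selected RNA of mice with a QPCTL-KO allele on a C57/Bl6JR background and of wild-type littermates was sequenced in 48 samples. QPCTL is the Golgi glutaminyl cyclase, which forms pyroglutamate on secreted proteins such as chemokines and on CD47. The CD45-negative tumour cells, 12 samples, were sorted live from B16F10 melanomas 14 days after inoculation, 6 from homozygous QPCTL-KO mice that received QPCTL-KO B16F10 cells and 6 from wild-type mice that received QPCTL-WT B16F10 cells. B16F10 is a mouse melanoma line, and the sort removes leukocytes, which carry CD45. Baseline bone marrow, 8 samples, and baseline spleen, 8 samples, were whole snap-frozen organs of uninoculated mice aged 10 to 15 weeks, with 4 homozygous QPCTL-KO and 4 wild-type samples for each organ. Count columns name the tissue and a running number but not the genotype, so KO and wild-type animals are mixed within each tissue below. Lymph nodes, 8 at baseline and 12 from tumour-bearing mice, are not analysed here, because their 20 columns do not say which of the 2 groups they hold.

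Depth was low. Counts assigned to genes totalled 54117 to 510363 per library in CD45-negative tumour cells, 227240 to 637985 in bone marrow and 219229 to 626316 in spleen, whereas the labels state an average of 18000000 reads per sample. Spleen library 3 had the highest total of its tissue. The tissues carried their defining markers. In tumour cells 7 of 7 melanocyte and melanoma genes had counts, while Ptprc, which encodes CD45, had 0 counts in all 12 libraries. In bone marrow the granulocyte and myeloid progenitor genes summed to 14787 to 34589 CPM (counts scaled to a common library size, here with TMM factors), against 34.4 to 1972 CPM in spleen. In spleen 8 of 8 B cell genes had counts, with a sum of 207 to 1403 CPM. Bone marrow also had counts on 8 of 8, with a sum of 53.5 to 227 CPM, which overlaps the spleen range. Spleen libraries 5, 6 and 8 had 24, 18 and 33 raw counts of Ptprc, where the other 5 spleen libraries had 100 to 299. Their totals, at 227713, 248571 and 219229 counts, were also the lowest of the spleen. The library kit keeps strand. The mitochondrial gene mt-Nd6, the only protein gene encoded on the light strand, had 63.1 times as many counts per kilobase as the median of 10 heavy-strand protein genes in tumour cells, 78.5 times in bone marrow and 73.4 times in spleen. The strand setting of the counting is not given in the sources used here. It is thus not settled whether a count on a segment is a read of its own strand or of the opposite strand. The part of the strand setting in the low totals was not tested.

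The segments that carried the most counts, and those whose position bears on their counts, are shown by the last 75 bases of their GENCODE M21 transcript on GRCm38. Capitals mark the codon of the conserved second cysteine and what follows it, the germline start of the antigen-binding CDR loop that recombination completes. Trbv13-1 and Trbv13-2 are shown because they had the most beta counts, Trbv13-3 as their relative, Trbv29 and Trbv19 because they came next in the beta chain, and Trdv5 because it held nearly all delta counts.

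Trbv13-1: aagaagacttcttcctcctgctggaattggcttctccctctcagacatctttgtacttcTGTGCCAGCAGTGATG
Trbv13-2: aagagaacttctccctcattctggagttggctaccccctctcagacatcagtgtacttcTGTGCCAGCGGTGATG
Trbv13-3: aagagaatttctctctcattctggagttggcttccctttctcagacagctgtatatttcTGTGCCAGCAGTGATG
Trbv29: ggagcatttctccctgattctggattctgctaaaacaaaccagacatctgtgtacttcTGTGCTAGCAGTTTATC
Trbv19: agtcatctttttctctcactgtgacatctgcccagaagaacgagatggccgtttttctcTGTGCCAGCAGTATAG
Trdv5: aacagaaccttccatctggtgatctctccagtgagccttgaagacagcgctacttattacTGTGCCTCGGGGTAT

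The Trbv13 segments are close relatives on the plus strand of chromosome 6, with members of the Trbv12 family between them, Trbv13-1 at chr6:41116007-41116468, Trbv13-2 at chr6:41121396-41121832 and Trbv13-3 at chr6:41130147-41130585. Over the stretch shown, Trbv13-1 and Trbv13-2 had 64 of 75 bases in common, Trbv13-2 and Trbv13-3 had 65, and Trbv13-1 and Trbv13-3 had 60. Trbv29 (chr6:41271394-41271881) and Trbv19 (chr6:41178375-41179048) are on the same strand. Trdv5 (chr14:54148662-54149294) is on the minus strand, in the inverted orientation for which it is known, downstream of the delta constant gene.

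Counts on V segments were sparse in all 3 tissues. Over all 144 segments, CD45-negative tumour cells had 0 counts in 12 of 12 libraries, bone marrow had 17 counts in 8 libraries, and spleen had 59 counts in 8 libraries. Bone marrow libraries 1 to 8 had 2, 1, 3, 1, 5, 1, 1 and 3 counts. Spleen libraries 1 to 8 had 6, 8, 23, 9, 3, 0, 9 and 1 counts. The ranges of raw counts overlapped, since spleen libraries 6 and 8 were as low as or lower than every bone marrow library. With TMM scaling spleen library 8 was at 5.74 CPM, within the bone marrow range of 1.69 to 7.63 CPM. Spleen library 6, at 0 CPM, was below that range.

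**Figure D1:**
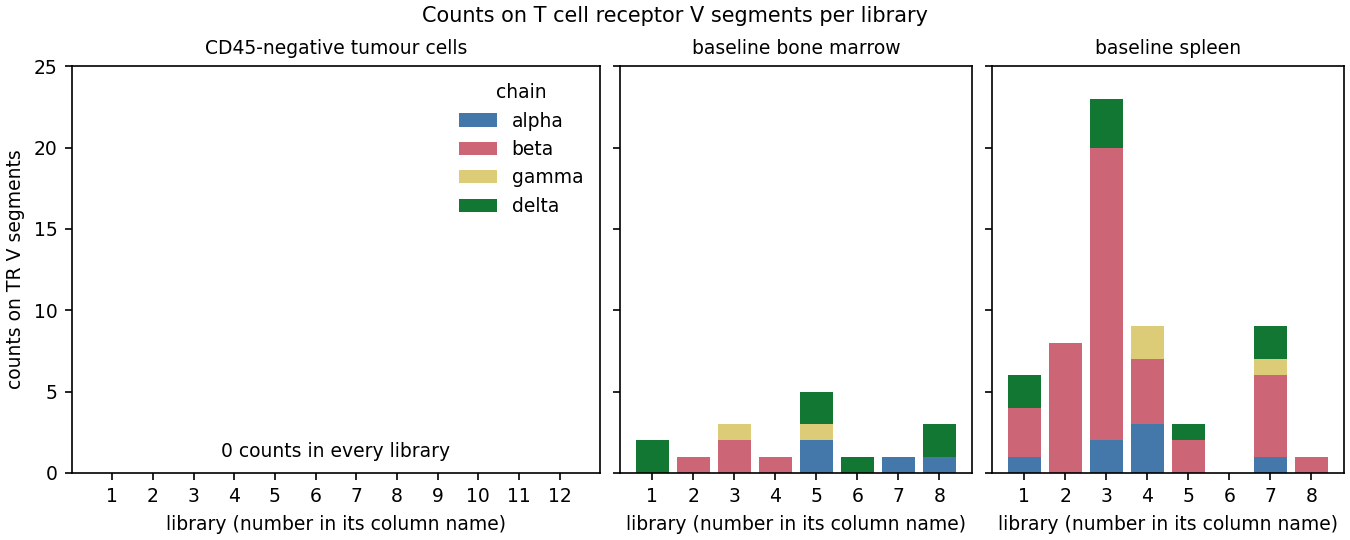
Counts on the 144 V segments in each library (bars, stacked by chain), with the library number from its column name on the horizontal axis. CD45-negative tumour cells had 0 counts throughout, bone marrow 1 to 5 counts per library and spleen 0 to 23.

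The segments were set against the total counts of the tissue, pooled over its libraries without TMM scaling. They made up 4.86 CPM in bone marrow (exact Clopper-Pearson 95% interval 2.83 to 7.78) and 21.8 in spleen (16.6 to 28.1). The bone marrow to spleen ratio was 0.223, with an exact counting interval of 0.122 to 0.388. Such intervals and the floors below cover counting error only, and without molecular identifiers counts need not be independent molecules. With TMM scaling per library the summed level was 4.57 ± 2.14 CPM in bone marrow and 18.9 ± 12.04 CPM in spleen (SD, n = 8 each). Spleen library 3 alone held 23 of the 59 spleen counts, and without it spleen had 36 counts, or 17.3 pooled CPM. In these whole organs, fewer T cells and fewer receptor counts per T cell cannot be told apart.

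For the sorted tumour cells, 0 counts allow a level of up to 0.884 CPM pooled over the 12 libraries (3 counts of the total). The pooled level was 5.49 times that floor in bone marrow and 24.6 times in spleen. These multiples leave out the counting error of bone marrow and spleen, so they are not lower limits. Trac, Trbc1, Trbc2, Trdc, the 4 Trgc genes, Cd3d, Cd3e and Cd3g likewise had 0 counts in the 12 tumour libraries. Of the 22 genes for the T cell receptor complex and T cell identity, 14 had 0 counts there and 8 had counts, among them Cd247 with 1130, Cd4 with 22 in 10 of 12 libraries and Cd8a with 1. For the tumour samples, 11340 genes are listed in the authors' deposited table, none of them a V segment or a receptor constant gene, and its lowest mean is 3.11 log2 CPM.

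Of the 144 segments, 29 had a count in any library, 10 in bone marrow and 24 in spleen. Of these, 5 were found in both organs, 5 in bone marrow but not in spleen, and 19 in spleen but not in bone marrow. A total of 14 segments rested on 1 count in all, and no segment had more than 3 counts in a library. Bone marrow libraries had counts on 1 to 4 segments and spleen libraries on 0 to 12. In no library did a chain reach 50 counts, so dominance of a segment within a library was not detectable at this depth, and shares are given over the pooled libraries of a tissue.

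By chain, bone marrow had 4 alpha, 4 beta, 2 gamma and 7 delta counts, and spleen had 7 alpha, 41 beta, 3 gamma and 8 delta counts. Beta segments thus took 23.5% of the V counts in bone marrow (exact Clopper-Pearson 95% interval 6.81 to 49.9%) and 69.5% in spleen (56.1 to 80.8%). Delta segments took 41.2% in bone marrow (18.4 to 67.1%) and 13.6% in spleen (6.04 to 24.98%). The alpha share was 23.5% in bone marrow (6.81 to 49.9%) and 11.9% in spleen (4.91 to 22.9%), and the gamma share was 11.8% in bone marrow (1.46 to 36.4%) and 5.09% in spleen (1.06 to 14.2%). These intervals treat the pooled counts as independent draws. For beta the intervals of the 2 organs did not overlap with all libraries, but spleen library 3 gave 18 of the 41 spleen beta counts, and without it the spleen share was 63.9% (46.2 to 79.2%), which overlaps the bone marrow interval. They overlapped as well with V pseudogenes added, at 43.5% in bone marrow (23.2 to 65.5%) and 68.9% in spleen (55.7 to 80.1%). With segments that overlap another gene left out, the beta share was 40% in bone marrow (12.2 to 73.8%) and 83.7% in spleen (70.3 to 92.7%), again with overlapping intervals. Whether 2 intervals overlap does not test a difference in share, and no such test was run. Whether the beta share differs between the organs is therefore left undecided. For alpha, gamma and delta the intervals overlapped with all libraries.

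Chain by chain, the bone marrow to spleen ratio of pooled CPM was 0.0756 for beta (exact counting interval 0.0197 to 0.209), 0.443 for alpha (0.0950 to 1.74), 0.517 for gamma (0.0431 to 4.51) and 0.678 for delta (0.209 to 2.14). The intervals for alpha, gamma and delta include 1.

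**Figure D2:**
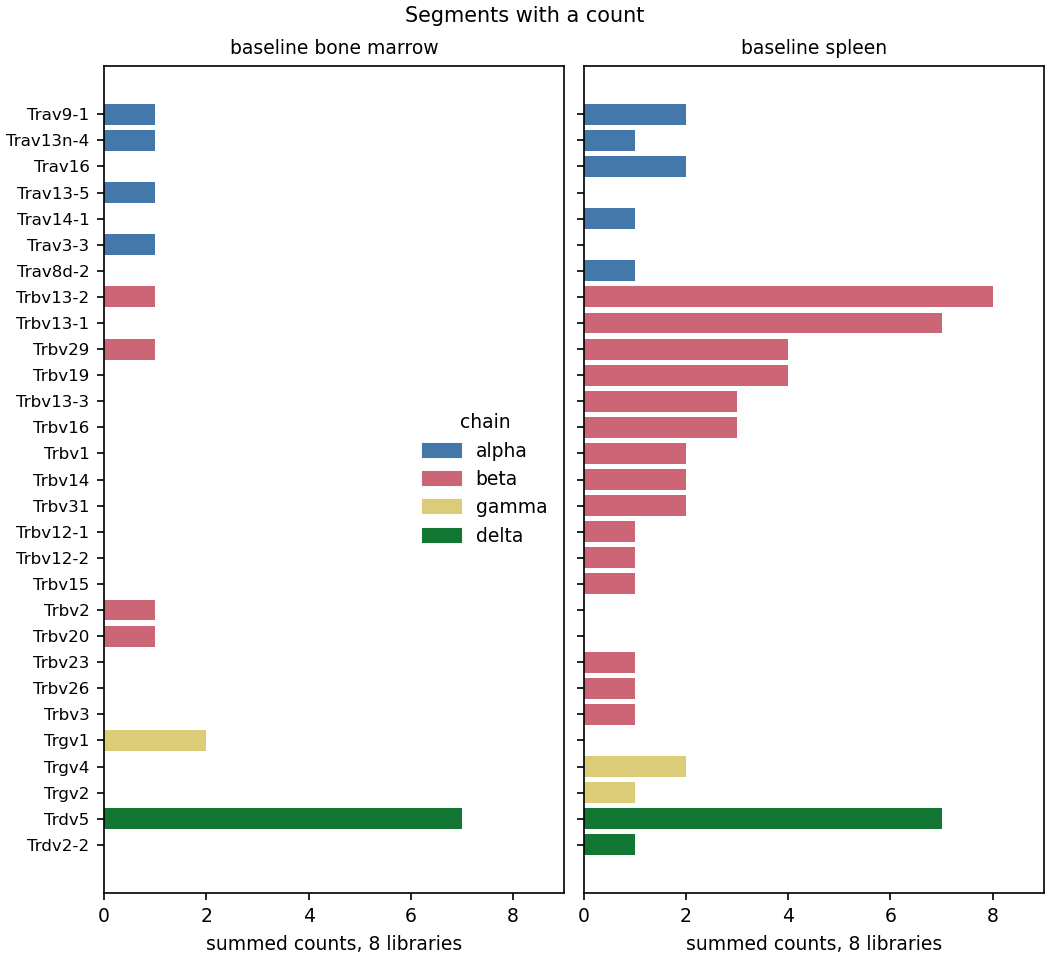
Summed counts of each of the 29 segments with a count, in 8 bone marrow libraries (left) and 8 spleen libraries (right), coloured by chain. Trdv5 had 7 counts in each organ, while Trbv13-2 had 1 in bone marrow and 8 in spleen and Trbv13-1 had 0 in bone marrow and 7 in spleen.

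Beta segments were the most widely detected, with counts on 17 of 22. Bone marrow had 1 count each on Trbv2, Trbv13-2, Trbv20 and Trbv29, and spleen had counts on 15 segments. The Trbv13 family held 1 count in bone marrow, and in spleen it held 18 of 41 beta counts, or 43.9% (28.5 to 60.3%). Trbv13-1 had 0 counts in all 8 bone marrow libraries, and in spleen 1 count in libraries 2 and 5, 2 in library 7 and 3 in library 3. Trbv13-2 had 1 count in bone marrow library 4, and in spleen 1 count in libraries 1 and 2 and 3 in libraries 3 and 7. Trbv13-1 and Trbv13-2 thus each had spleen counts in 4 of 8 libraries, not all of them the same. Trbv13-3 had 0 counts in bone marrow and 3 in spleen, all in library 2.

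Trbv13-2 was the largest beta segment in spleen, with 8 of 41 beta counts, or 19.5% (8.82 to 34.9%). Trbv29 had 1 count in bone marrow library 2, and in spleen 2 in each of libraries 3 and 4. Trbv19 had 0 counts in bone marrow, and in spleen 3 in library 3 and 1 in library 4. Trbv31, the beta segment in inverted orientation downstream of the beta constant genes, had 0 counts in bone marrow and 2 in spleen, both in library 3. Trbv4, Trbv5, Trbv17, Trbv21 and Trbv30 had 0 counts in all 28 libraries.

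Alpha segments are the most numerous and were the least often detected, with counts on 7 of 110. Trav9-1 and Trav13n-4 had 1 count each in bone marrow, and 2 and 1 in spleen. Trav16 and Trav14-1 had 0 counts in bone marrow, and 2 and 1 in spleen. Trav9-1 and Trav16 tied for the largest alpha share in spleen, each with 2 of 7 counts, or 28.6% (3.67 to 71.0%). Trav11 and Trav11d, used by the invariant alpha chain of natural killer T cells, and Trav1, used by that of mucosal-associated invariant T cells, had 0 counts in all 28 libraries. Trav11 and Trav11d have no 50-base window that is unique among V segments, so their 0 counts do not show that they are absent, whereas all windows of Trav1 are unique. The alpha locus holds near-identical copies, so the split of counts among alpha segments is uncertain.

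Gamma segments had counts on 3 of 7. Trgv1 had 1 count in bone marrow libraries 3 and 5 and 0 in spleen. Trgv4 had 0 counts in bone marrow and 1 in spleen libraries 4 and 7. Trgv2 had 0 in bone marrow and 1 in spleen library 4. Trgv3, Trgv5, Trgv6 and Trgv7 had 0 counts in all 28 libraries.

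Delta counts fell almost wholly on Trdv5, which had 7 of 7 delta counts in bone marrow (100%, 59.0 to 100%) and 7 of 8 in spleen (87.5%, 47.4 to 99.7%). In bone marrow Trdv5 had 2 counts in libraries 1, 5 and 8 and 1 in library 6. In spleen it had 1 count in libraries 1 and 5, 2 in library 7 and 3 in library 3. Each organ therefore had Trdv5 in 4 of 8 libraries, and the bone marrow to spleen ratio was 0.775 (0.232 to 2.59). Trdv2-2 had 0 counts in bone marrow and 1 in spleen, and Trdv1, Trdv2-1 and Trdv4 had 0 counts in all 28 libraries.

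Trdv5 shares sequence positions with another gene. Its exons, 438 bases in all, overlap 207 exonic bases at the 3′ end of Trdc, the delta constant gene on the plus strand. Trdc had 15 counts in bone marrow, with a lowest, median and highest count per library of 0, 1.5 and 4, and 19 in spleen, with 0, 2.5 and 5. How reads in the shared stretch were assigned is not given in the sources used here, so counts on Trdv5 cannot be told apart from RNA of Trdc read on the other strand. Without Trdv5 the V segments had 10 counts in bone marrow and 52 in spleen. Of the 144 segments, 8 overlap an exon of another gene.

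The constant genes, which every rearranged chain of their locus carries, gave a second view of the receptor loci. Trac, the alpha constant gene, had 6 counts in bone marrow and 41 in spleen, with 0 to 2 per library in bone marrow and 0 to 17 in spleen. Trbc1 and Trbc2, the beta constant genes, had 1 and 3 counts in bone marrow, and 30 and 17 in spleen. The 4 gamma constant genes together had 1 count in bone marrow and 5 in spleen. Spleen libraries 6 and 8 had 0 counts of Trac, Trbc1 and Trbc2, as they had the fewest V segment counts.

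V counts were also set beside the constant gene counts of their chain. Alpha V segments had 4 counts beside 6 on Trac in bone marrow, and 7 beside 41 in spleen, a V share of 14.6% in spleen (6.07 to 27.8%). Beta V segments had 4 counts beside 4 on the beta constant genes in bone marrow, and 41 beside 47 in spleen, a V share of 46.6% in spleen (35.9 to 57.5%). The spleen intervals of alpha and beta did not overlap with all libraries. Without spleen library 3 they did, at 17.2% for alpha (5.85 to 35.8%) and 43.4% for beta (29.8 to 57.7%). Counts were not corrected for length here, and the constant genes differ from the segments and among themselves in length.

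**Figure D3:**
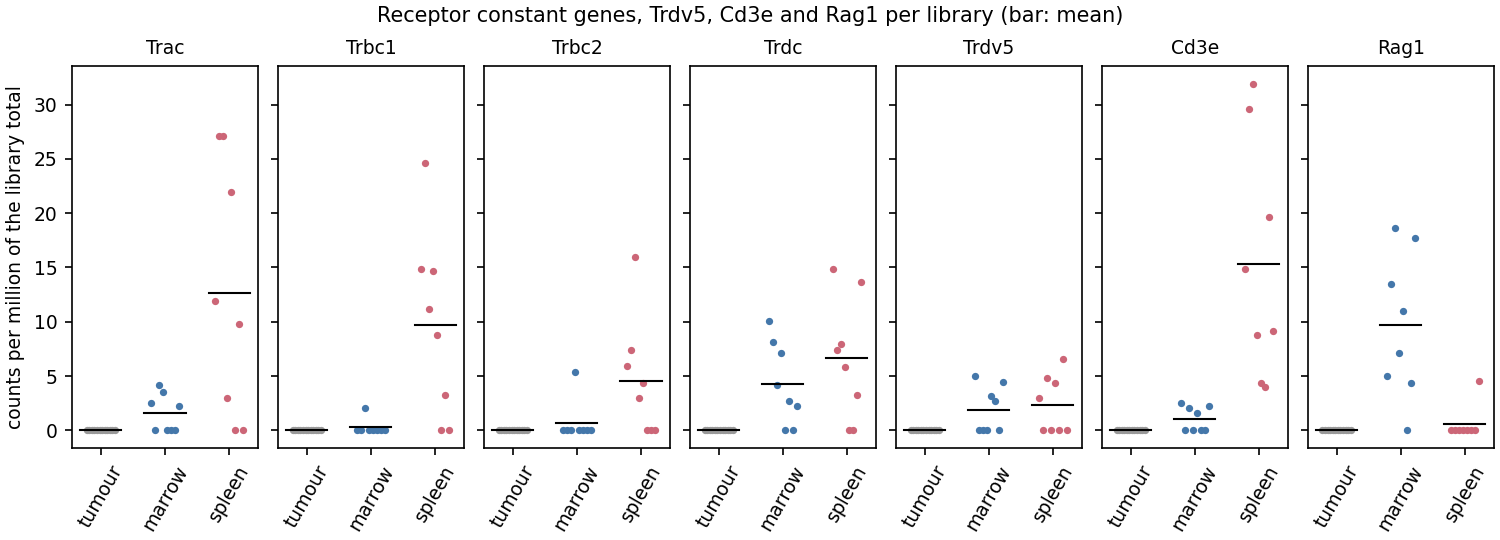
CPM of the library total, without TMM scaling, for receptor constant genes, Trdv5, Cd3e and Rag1, with a point for each library (12 tumour, 8 bone marrow, 8 spleen) and a bar at the mean. Trac, Trbc1, Trbc2 and Cd3e were near 0 in bone marrow and spread widely in spleen, Trdc and Trdv5 overlapped between the organs, and Rag1 had 36 counts in bone marrow and 1 in spleen.

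Bone marrow and spleen were compared over all genes with edgeR's quasi-likelihood test and Benjamini-Hochberg adjustment, called at an adjusted p under 0.05. After the filter on low counts 4239 genes were tested and 1608 were called (37.9%), 795 higher in bone marrow (18.8%) and 813 lower (19.2%). Of the 144 segments, 0 passed that filter, so this fit gives no p for any of them, adjusted or not.

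With every gene of at least 1 count kept, 22736 genes were tested and 4726 called (20.8%), 8.42% higher and 12.4% lower in bone marrow. The 29 detected segments were all tested, 5 had an unadjusted p under 0.05, and 3 were called, all lower in bone marrow. Since a segment entered through the organ in which it had counts, the number called is read only against the 12.4% of all genes. The 3 of 29 segments called did not exceed that share. Trbv13-1, with 0 counts in bone marrow and 7 in spleen, had an edgeR adjusted p of 0.00478. Its pooled spleen level was 3.01 times a bone marrow floor of 3 counts over the group. Trbv13-2, with 1 count in bone marrow and 8 in spleen, had a bone marrow to spleen ratio of 0.0969 (exact counting interval 0.00218 to 0.722), a fitted log2 difference of -2.43 (SE 0.85) and an edgeR adjusted p of 0.0258. Trbv19, with 0 counts in bone marrow and 4 in spleen, had an edgeR adjusted p of 0.0461. Its pooled spleen level was 1.72 times the same floor. Both multiples of the floor leave out the counting error of the spleen counts, so they are not lower limits.

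These 3 calls rested on few counts. The edgeR p-values of Trbv13-1 and Trbv19, with 0 counts in bone marrow, were not set against counting error alone. Unadjusted p-values by edgeR were 0.000599 for Trbv13-1, 0.00451 for Trbv13-2 and 0.00947 for Trbv19. By DESeq2 they were 0.0926, 0.0823 and 0.535. DESeq2 called 23.9% of 15242 genes (9.97% higher and 14% lower in bone marrow). It gave an adjusted p to 2 of the 29 segments, 0.215 for Trbv13-2 and 0.851 for Trdv5, called 0, and had 0 at an unadjusted p under 0.05. Without spleen library 3, edgeR called 1 of 24 tested segments, Trbv13-1, with an adjusted p of 0.0258, and 6 had an unadjusted p under 0.05. That fit called 4234 of 22253 genes, 2519 of them lower in bone marrow. Trdv5 had a fitted log2 difference of -0.33 and an edgeR adjusted p of 0.792, and a difference between the organs was not detectable at this depth.

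Other T cell genes were lower in bone marrow in the same unfiltered fit, whereas only Cd247 of these passed the filter on low counts. Of 22 genes for the T cell receptor complex and T cell identity, 22 were called lower in bone marrow and 0 higher, with a median log2 difference of -2.70 beside -0.20 over all 22736 genes. In that fit 12.4% of all genes were called lower. DESeq2 called 21 of the 22 lower, beside 14% of all genes. Trac had a log2 difference of -2.86 (SE 0.59, edgeR adjusted p 2.29e-05). Cd3e, a CD3 chain of the receptor complex, had 4 counts in bone marrow and 50 in spleen (log2 difference -3.60, SE 0.60, edgeR adjusted p 7.66e-08). Cd4 and Cd8a, the coreceptors of helper and cytotoxic T cells, had 6 and 7 counts in bone marrow, and 82 and 65 in spleen. Trbc2 was called lower by edgeR (adjusted p 0.00887) but not by DESeq2 (adjusted p 0.122) or by edgeR without spleen library 3 (adjusted p 0.147).

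The delta constant gene did not pass the test. Trdc had a log2 difference of -0.69 (SE 0.58, edgeR adjusted p 0.421). Of 12 gamma delta T cell genes, 8 were tested, 3 were called lower in bone marrow and 0 higher, and DESeq2 called 2 of 5 tested lower. Over all genes, 12.4% were called lower in the unfiltered edgeR fit and 14% by DESeq2.

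Some genes of the recombination machinery were higher in bone marrow. Of 11 V(D)J recombination genes, 10 were tested, 5 were called higher in bone marrow and 1 lower. Over all genes of the unfiltered fit, 8.42% were called higher and 12.4% lower. DESeq2 called 3 higher and 1 lower of 8 tested, beside 9.97% and 14% of all genes. Without spleen library 3, edgeR called 4 higher, beside 1715 of 22253 genes. Rag1, a RAG recombinase subunit, had 36 counts in bone marrow and 1 in spleen, a ratio of 27.9 (exact counting interval 4.70 to 1132), with an edgeR adjusted p of 3.72e-05. Rag2, the other subunit, had 6 counts in bone marrow and 0 in spleen, with an edgeR adjusted p of 0.0461. Its pooled bone marrow level was 1.55 times a spleen floor of 3 counts, which leaves out the counting error of the 6 counts. Without spleen library 3 the edgeR adjusted p of Rag2 was 0.0887, and DESeq2 gave it an unadjusted p of 0.327 and no adjusted p. Dntt had 45 counts in bone marrow and 9 in spleen (log2 difference 1.79, SE 0.55, edgeR adjusted p 0.00890). Ptcra, the pre-T alpha chain of thymic precursors, had 0 counts in all 28 libraries. B cell precursors in bone marrow also use Rag1, Rag2 and Dntt.

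Cell content also differed between the organs. Apart from Cd247, which also had 1130 counts in the sorted tumour cells, the T cell genes summed to 34.8 to 89.1 CPM in bone marrow and 68.9 to 706 CPM in spleen. Spleen library 6, with 0 V counts, was the lowest of its organ at 68.9 CPM, and spleen library 3, with 23, was at 664 CPM. Spleen library 8, with 1 V count, was at 275 CPM, above every bone marrow library. In that library Trac, Trbc1 and Trbc2 had 0 counts, and Cd3d, Cd3e and Cd3g had 3, 2 and 2. Its sum thus also draws on other genes of the list. Of the 8 B cell genes, 8 were called lower in bone marrow. Of the 10 granulocyte and myeloid progenitor genes, 10 were called higher, and of 7 erythroid genes, 7 were called lower. Of 5 plasma cell genes, 3 were called lower, as were 1 of 4 tested melanocyte genes and 1 of 3 tested lymph node stroma genes, and 1 of 5 pan-leukocyte genes was called higher. Over all genes of the unfiltered fit, 12.4% were called lower and 8.42% higher. Beside those shares, 1 call in a list this short shows no difference for its cell type. DESeq2 called 8 B cell, 5 erythroid and 2 plasma cell genes lower, 10 granulocyte genes higher and 0 pan-leukocyte genes in either direction. Its shares over all genes were 14% lower and 9.97% higher. Without spleen libraries 6 and 8, edgeR called 5 erythroid genes lower, beside 2973 of 22452 genes, and 0 pan-leukocyte genes in either direction. The part of cell content in the V segment difference was not tested.

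**Figure D4:**
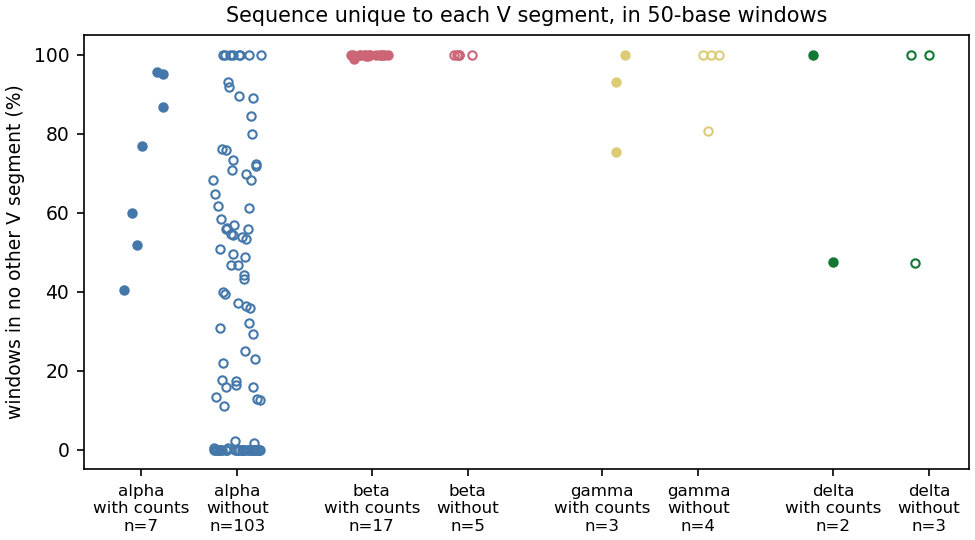
Share of the 50-base windows of each segment that occur in no other V segment or V pseudogene, by chain, for segments with a count (filled) and without (open). Beta segments lie at or near 100% whether detected or not, whereas alpha segments spread over the whole range.

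The segments differ in how far a short read can be placed on them. Reads were 50 bases from each end, per the labels' protocols, and the share of 50-base windows found in no other V segment or V pseudogene was computed for each segment. Its median was 31.4% for alpha segments and 100% for beta, gamma and delta segments. Of the 110 alpha segments, 37 had no unique window. Segments with a count had a median of 100% unique windows (n = 29), and segments without a count had 36.4% (n = 115). Within alpha the medians were 76.9% with a count (n = 7) and 22.9% without (n = 103), while within beta both were 100%. How reads that map to several places were counted is not given in the sources used here, and its part in the low alpha counts was not tested.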

How the data were processed

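The authors deposited raw read counts per gene for all samples in 1 table, and a table of the tumour comparison with a mean log2 CPM per gene, per the file headers. Builds GRCm38 and mm10 and the tools HISAT2 and edgeR, without versions, are named by the submitters' processing notes. Libraries were made with the TruSeq Stranded mRNA kit, per the labels' protocols. The sources used here give no counting program, strand setting or annotation. All 144 segments, and 98.95% of all genes, have identical coordinates in GENCODE M21, from which strand, exons and sequences were taken.

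Of 48 count columns, 28 were matched to a tissue by name and 20 were not used. This left 1 of 4 planned comparisons. The row without a gene identifier held 0 counts. No 2 libraries of a tissue were identical (66 tumour, 28 bone marrow and 28 spleen pairs). Nothing in the labels says outright that the samples of a group are separate animals, so p-values measure only the spread between these samples, which may be technical.

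Bone marrow and spleen were compared with edgeR 4.0.16 in R 4.3.3 (TMM, filterByExpr, quasi-likelihood test), with DESeq2 1.42.0 as an alternative. The method was tested on simulated data. Genes named are the 4 segments with the highest mean CPM over tissues in each chain (here over the 3 tissues used), up to 5 called segments in each direction, all gamma and delta segments, and Trav11, Trav11d, Trav1 and Trbv31; Trbv13-3, the other beta segments and the other alpha segments in the plots were added after their values were seen. The segments and gene lists were chosen with earlier results of these data known.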

Additional observations from a re-analysis of the deposited data

Results flagged for a closer look

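Among 26 groups of 8 libraries checked for a library far from the others (gap to the nearest over the range above 0.526), 4 had one. Chance gives about 1 in 20 for continuous values, a rate that does not apply to the 3 genes below, whose counts lie in 1 library with 0 in the rest. The total of spleen library 3 was 626316 counts, with the next at 405998. Trbc1 in bone marrow library 3 was at 1.94 CPM, which is 1 count where the other 7 libraries had 0. Trbc2 in bone marrow library 4 was at 5.06 CPM, which is 3 counts where the other 7 had 0. Rag1 in spleen library 8 was at 5.74 CPM, which is 1 count where the other 7 had 0.

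Among the V pseudogenes, which were outside the counts above, Trbv24 (chr6:41218091-41218557, plus strand) had 6 counts in bone marrow, 1 in each of libraries 1, 3, 5, 6, 7 and 8, against 1 in spleen, in library 3. CD45-negative tumour cells had 0. No V gene was found in as many bone marrow libraries. The last 75 bases of Trbv24 are shown for the stop codon that its frame holds shortly before the cysteine codon (capitals from the cysteine codon on).

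Trbv24: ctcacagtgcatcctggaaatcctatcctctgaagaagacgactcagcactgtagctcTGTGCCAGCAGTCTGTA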

How the results depend on the processing

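Bone marrow against spleen gave 0 called segments with the filter on low counts, with RLE scaling, with totals computed without receptor genes, with a stricter filter, with the 28 columns in 1 fit and without spleen library 3, in each of which 0 segments could be tested, and 0 by DESeq2. Without the filter 3 of 29 segments were called, beside 20.8% of all genes. Further alternatives without the filter were chosen after seeing the data. Leaving out spleen library 3 gave 1 of 24 segments, beside 4234 of 22253 genes. Leaving out spleen libraries 6 and 8, which had 0 counts of Trac, Trbc1 and Trbc2, gave 3 of 28, beside 5171 of 22452 genes. With segments that overlap another gene left out, the delta share was 0% in bone marrow and 0% in spleen, and the beta share in spleen was 83.7%; that setting leaves out Trdv5 and Trdv2-2, so no delta segment has a largest share under it. With only segments of at least 50% unique windows, Trdv5 held 100% of spleen delta counts. The other 53 of 60 values stayed within their error or kept their count, but 6 of them moved by over 1.5 times within wide errors. With V pseudogenes added the beta share in bone marrow was 43.5%. With segments that overlap another gene left out, bone marrow had a summed level of 2.68 CPM, an alpha and a beta share of 40% each and a gamma share of 20%, and spleen had a gamma share of 2.04%. No paired analysis was possible because the column names carry no number that a title ties to a sample. The titles number bone marrow and spleen samples alike, so both organs may come from the same mice, and the tests treat all their libraries as independent. The other settings meant for the 3 comparisons with lymph nodes, leaving out lymph node columns included, were not run. Depth limits every value: 76 counts in all fell on the segments, too few to rank most of them.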
